A study of Mus musculus with 2 samples.

Results

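Barcodes labelled here as Cd209a Flt3 dendritic cells were followed in 2 single-cell RNA libraries from mouse colon, 1 per genotype. A barcode was a member when it held UMIs (unique molecular identifiers, the counted RNA molecules) of at least 2 of 6 marker genes, Flt3, Cd209a, Klri1, Plet1, Ccl17 and Ccl22. It also needed 10 or more UMIs of the MHC class II genes H2-Aa, H2-Ab1 and Cd74 together, fewer than 3 UMIs of the macrophage genes C1qa, C1qb and C1qc, fewer than 3 of Cd79a, Cd79b and Ms4a1 (B cells) and fewer than 2 of Cd3d, Cd3e and Cd3g (T cells). Among the 3173 barcodes with no fewer than 300 and no more than 5000 genes detected and with mitochondrial genes giving up to 10% of UMIs, 86 met the rule, 57 in the IL-10R KO library (KO) and 29 in the IL-10R/CerS2 DKO library (DKO). Of the 86 members, 12 had UMIs of both Flt3 and Cd209a and 30 had neither, so the label does not describe every member. The unfiltered matrices held 3326 barcodes.

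The donors of the KO group lacked the IL-10 receptor, and those of the DKO group lacked both the receptor and CerS2, a ceramide synthase that uses very long acyl chains. Their CD45.2 bone marrow was placed in CD45.1 recipients, and colon cells were released with collagenase D and sorted on CD11b, CD11c and CD64. Both groups therefore lack the IL-10 receptor, no group with the receptor was analysed here, and the deletions sit in every donor blood cell rather than in dendritic cells alone, while non-haematopoietic cells, and any immune cells that outlived the transplant, are of the host. The age of the mice and the number that gave each library are not given in the sources used here. With 1 library per genotype there is no replicate, so no test was made between genotypes, and each interval below is a 95% interval that covers counting error only.

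Conventional dendritic cells arise from marrow precursors that need the receptor FLT3, take up antigen in tissue and present it to T cells on MHC class II. In the gut, type 2 cells (cDC2) carry the lectin CD209a or, in a subset with integrin CD103, surface proteins such as PLET1. On maturation they gain CCR7, which guides them to lymph nodes, together with cytoskeletal, costimulatory and chemokine genes such as Fscn1, Cd40, Ccl17 and Ccl22. CD64, one of the sort markers, is a macrophage marker, and the labels call the samples colon macrophages.

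The kept barcodes summed to 12411247 UMIs in KO and 3401458 UMIs in DKO, with medians of 4715 and 3722 UMIs per barcode. Members were deeper than that, at medians of 8775 UMIs in KO (range 1259 to 20152) and 9899 UMIs in DKO (813 to 19586), and gave 592113 and 297145 UMIs in all. Cers2 (chromosome 3, 95314791 to 95323599, GRCm38), the gene deleted in DKO, had 552 UMIs in the kept KO barcodes and 2 in the kept DKO barcodes, so the libraries matched their labels. Members held 6 Cers2 UMIs in 5 KO cells and 0 in DKO, where 3.01 would be found at the KO rate, and the loss was not detectable within the members at this depth. In KO the Cers2 level was 10.1 CPM (UMIs of a gene per 1000000 UMIs summed over the cells, interval 3.72 to 22.1) in members and 46.2 CPM in the other kept barcodes. Il10rb, the receptor chain deleted in both groups, had 1 UMI in KO members and 2 in DKO members, and these 3′ tags check nothing, since which part of the gene is missing is not given in the sources used here. Only 1 barcode sequence occurred in both libraries, and it was not a member.

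Members made up 2.33% of the kept KO barcodes (57 of 2443; Clopper-Pearson interval 1.77 to 3.01) and 3.97% of the kept DKO barcodes (29 of 730, 2.68 to 5.66). Without B and T cell barcodes, which the sort was meant to exclude, the shares were 2.88% of 1978 (2.19 to 3.72) and 5.93% of 489 (4.01 to 8.41). Detection of marker genes depends on depth, and when each barcode was thinned to 1500 UMIs the shares were 1.0% in KO (22 of 2199) and 0.91% in DKO (6 of 659), so the order of the genotypes was not kept. With 3 of the 6 markers required, 27 KO barcodes (1.11%) and 15 DKO barcodes (2.05%) remained, and with 2 of Flt3, Cd209a, Klri1 and Plet1 there were 37 (1.51%) and 23 (3.15%).

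**Figure D1:**
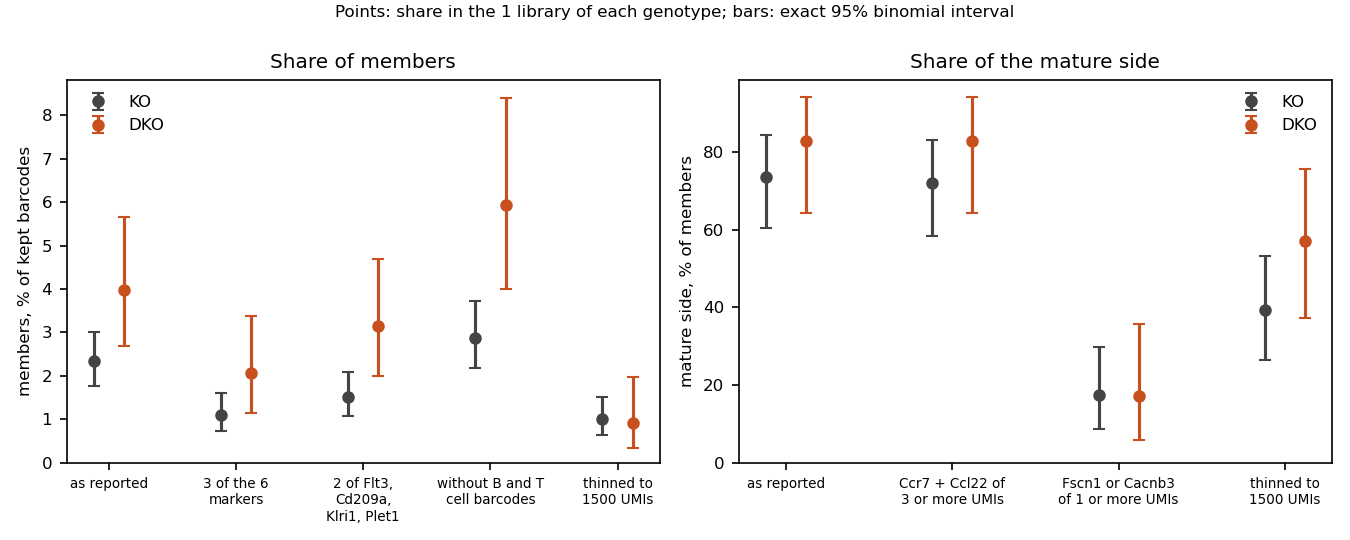
Share of members among kept barcodes (left, percent) and share of the mature side among members (right, percent) in the KO and DKO libraries under several settings of the rule; points are the 1 library of each genotype and bars are exact 95% binomial intervals. The DKO share of members lies above the KO share as reported (3.97% against 2.33%) but not after thinning to 1500 UMIs (0.91% against 1.0%).

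Exactly 2 markers were seen in 30 KO and 14 DKO members, 3 markers in 18 and 11, 4 markers in 8 and 3, and 5 markers in 1 of each. A further 68 KO and 23 DKO barcodes had 1 marker and met every other limit. The level of Ccr7 was 1152 CPM in KO members with 2 markers and 755 CPM in KO barcodes with 1 marker, and in DKO it was 1996 and 477 CPM. The level of Zbtb46, a transcription factor of conventional dendritic cells, was 20.7 and 5.84 CPM in KO and 43.1 and 23.8 CPM in DKO. On the macrophage side, 10 KO and 4 DKO members had 1 or 2 C1q UMIs, 5 and 4 barcodes with 3 to 5 C1q UMIs were just outside, and in all the C1q limit removed 31 KO and 13 DKO barcodes with 2 or more markers.

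The 6 marker genes, whose values chose the members and are given as a description, divided the members unevenly. Flt3 (chromosome 5, 147330741 to 147400489), the growth factor receptor of the lineage, was seen in 27 of 57 KO members (38 UMIs) and 14 of 29 DKO members (20 UMIs), never above 4 UMIs in a cell. Cd209a (chromosome 8, 3743397 to 3748984), a lectin related to DC-SIGN, had 40 UMIs in 13 KO members and 60 UMIs in 14 DKO members. Klri1 (chromosome 6, 129697218 to 129717132), a killer-lectin-like receptor, had 48 UMIs in 26 KO members and 39 UMIs in 19 DKO members. All 3 rested on few molecules per cell in both libraries.

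Plet1 (chromosome 9, 50494525 to 50505482) had 240 UMIs in 32 KO members and 69 UMIs in 9 DKO members, with up to 24 and 20 UMIs in a cell. Ccl17 (chromosome 8, 94810453 to 94812036) had 281 UMIs in 26 KO members and 45 UMIs in 12 DKO members. Ccl22 (chromosome 8, 94745590 to 94751699), which like Ccl17 encodes a ligand of CCR4, had 176 UMIs in 27 KO members and 40 UMIs in 10 DKO members. Both chemokines came together: 31 members had both, 7 had Ccl17 alone and 6 had Ccl22 alone, and Ccl17 with Ccl22 and no other marker was the commonest combination, with 11 KO and 2 DKO members. Flt3, Klri1 and Plet1 together made the next, with 5 and 3.

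Members, 2.33% and 3.97% of the barcodes, held 41.7 to 63.5% of the KO library's UMIs of these genes and 32.1 to 66.7% of the DKO library's. Free RNA was low for all 6: of the B and T cell barcodes 0 to 1.51% in KO and 0 to 1.66% in DKO had a UMI of each gene, at median depths of 3401 and 2900 UMIs.

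**Figure D2:**
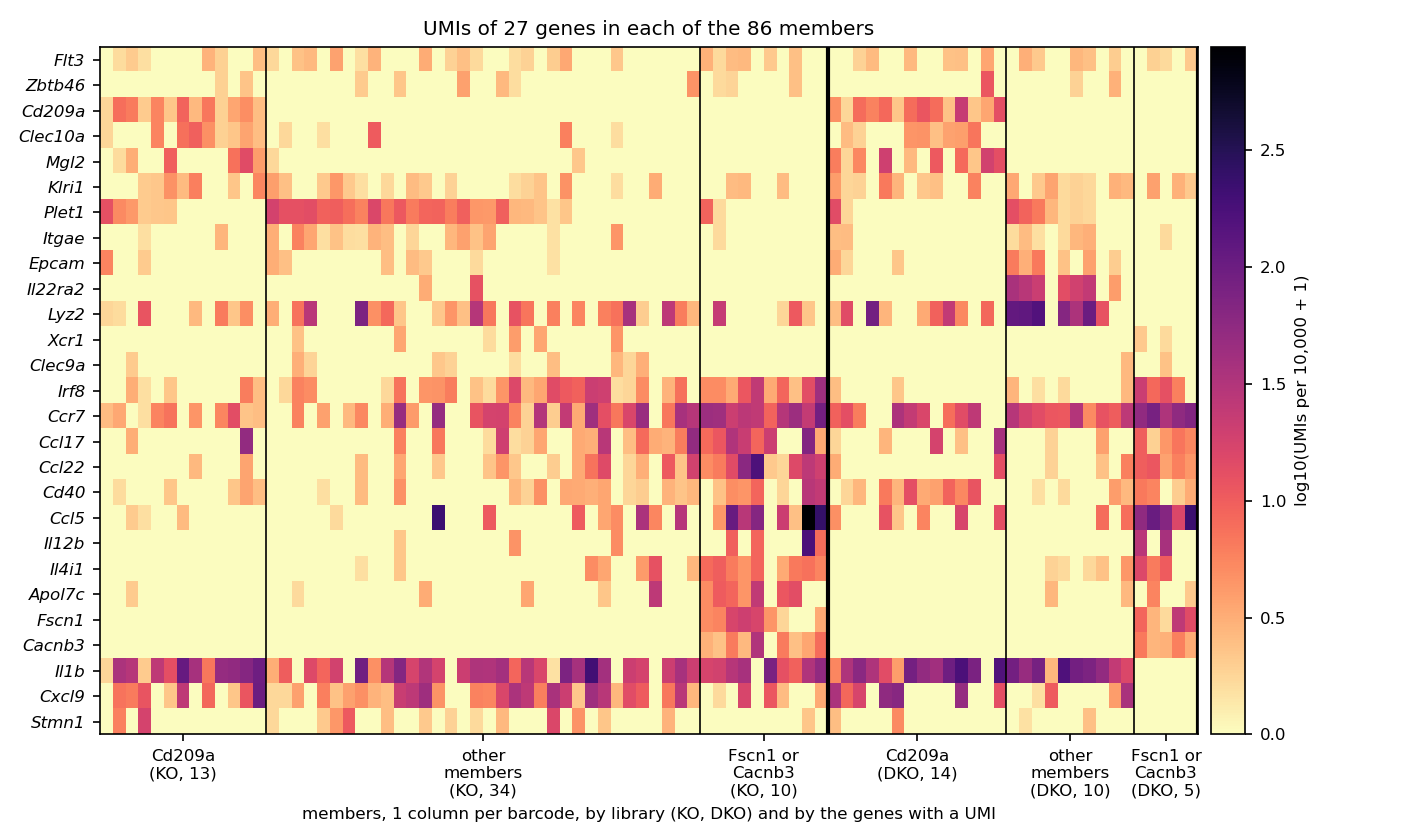
UMIs of 27 genes (rows) in each of the 86 members (columns), as log10 of UMIs per 10000 UMIs of the cell plus 1, with members grouped by library and by whether they held Cd209a, Fscn1 or Cacnb3, or none of these, and ordered by Plet1 within each group. Cd209a cells (13 in KO, 14 in DKO) and Fscn1 or Cacnb3 cells (10 and 5) do not overlap, though Cd209a is among the genes that chose the members. Lyz2 in DKO is concentrated in the cells with Il22ra2.

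The label was checked against marker lists. Of 10 measured core genes of conventional dendritic cells, 5 were at least 2-fold higher in members than in all other kept barcodes in both libraries and none was lower, against 4.68% of the 4038 genes measured that were higher (189 genes) and 4.04% that were lower. Flt3 is a rule gene, and the other 4 were Zbtb46 (log2 ratio 3.34 in KO and 1.87 in DKO), Kmo, a kynurenine enzyme (3.25 and 2.23), Btla, an inhibitory receptor (2.23 and 2.05), and Dpp4, a peptidase (2.13 and 1.22). Zbtb46 itself was sparse, with 14 UMIs in 11 KO members and 7 UMIs in 3 DKO members. The cDC2 list did not follow: of 10 measured genes 1, Cd209a, was higher and 2 were lower. Without Cd209a, a rule gene, 0 of 9 were higher. Of 7 gut CD103 genes 3 were higher and 1 lower, or 1 and 1 of 5 without Klri1 and Plet1. Of 6 measured genes of type 1 dendritic cells 2 were higher and none lower. These ratios describe cells chosen from the same data, so no test was made.

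Markers of other cell types were scarce. Of 7 measured monocyte and macrophage markers, 6 were at least 2-fold lower in members than in the other barcodes of both libraries. Without Lyz2 their summed level was 775 CPM in KO members and 670 CPM in DKO members, against 12168 and 12335 CPM in barcodes with 10 or more C1q UMIs. Mertk was at 0 in both, Adgre1 had 5 and 1 UMIs, and Fcgr1, which encodes the sorted marker CD64, had 5 and 5. The summed level with Lyz2 was 1533 CPM in KO (0 to 11862 among members) and 4335 CPM in DKO (60.9 to 15996), a difference that the Lyz2 result below carries. Pax5 and Ebf1 (B cells), Trbc1, Lck and Cd4 (T cells), Siglech (plasmacytoid dendritic cells), S100a8 (neutrophils) and all 7 mast cell and basophil genes were at 0. Il7r had 111 UMIs in KO and 57 in DKO, at much the level of the other barcodes (log2 0.21 and 0.49). Scrublet marked no member as a doublet, but it marked only 9 KO and 0 DKO barcodes in all, so this check was weak. Median scores were 0.046 in KO members against 0.038 in the other barcodes, and 0.048 against 0.033 in DKO.

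**Figure D3:**
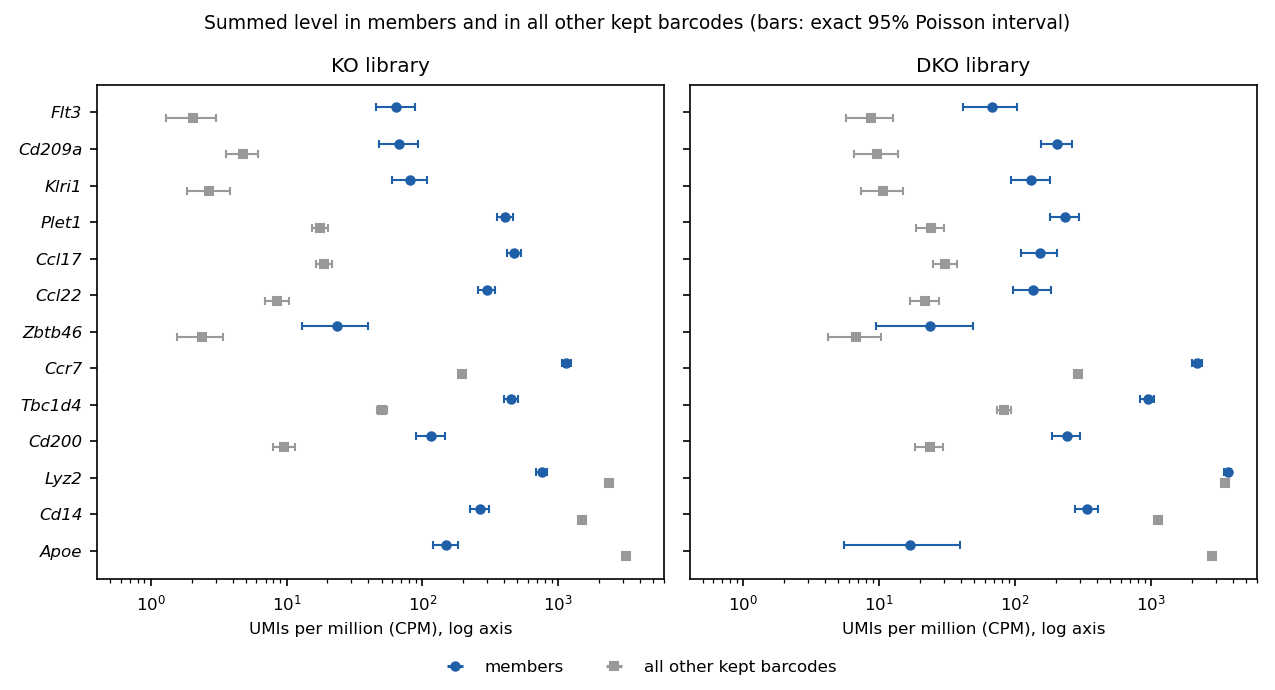
Summed level of 13 genes (CPM, log axis) in members and in all other kept barcodes of the KO and DKO libraries; bars are exact 95% Poisson intervals. The 6 marker genes, Zbtb46, Ccr7, Tbc1d4 and Cd200 are higher in members, Cd14 and Apoe are lower in both libraries, and Lyz2 is lower in KO only (log2 −1.64, against 0.07 in DKO).

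Beyond the marker genes, the 25 genes with the highest ratio of members over other barcodes in both libraries held cytoskeletal, signalling and membrane genes. Timd4, a receptor for phosphatidylserine, led with 22 UMIs in 57 KO members against 9 in all 2386 other KO barcodes (log2 5.56) and 14 against 4 in DKO (5.07). Cacnb3, a calcium channel subunit (4.78 and 4.61), Cd200, the ligand of an inhibitory receptor (3.58 and 3.35), Tbc1d4, a Rab GTPase-activating protein (3.16 and 3.51), and Fscn1, the actin-bundling protein fascin (4.21 and 3.11), were among them. Scin, an actin-severing protein, Nudt17, Sema7a, Pkib and Serpinb6b were others. Of the 26 measured genes of the mature dendritic cell list, 10 were at least 2-fold higher in both libraries and none was lower. These include Ccl17 and Ccl22, which chose the members, and without them 8 of 24 were higher. MHC class II genes, 3 of which the rule also used, gave 2 higher and 1 lower of 12, and the interferon-stimulated list 0 higher and 5 lower of 14. Il22ra2 came last of the 25, with 19 UMIs in KO and 223 in DKO members.

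Members were then divided by maturation. The mature side was set at 2 or more UMIs of Ccr7 and Ccl22 together, and the cDC2 side at Cd209a among the rest. Mature members were 42 of 57 in KO (73.7%, 60.3 to 84.5) and 24 of 29 in DKO (82.8%, 64.2 to 94.2), cDC2 members were 5 and 5, and 10 KO members and 0 DKO members were neither (0 of 29 allows up to 11.9%). The intervals overlapped. Thinned to 1500 UMIs the mature shares were 39.3% and 57.1%, in the same order. Ccr7 alone was seen in 45 KO and 24 DKO members, with a median of 5 UMIs (0 to 61) in KO and 13 UMIs (0 to 89) in DKO. Thinned to the same 1500 UMIs, 51.8% of KO and 71.4% of DKO members had a Ccr7 UMI, against 24.2% and 38.3% of B and T cell barcodes, a class in which many cells use Ccr7 themselves.

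The mature side over the cDC2 side gave 178 genes at 2-fold or more in both libraries (4.76% of 3738) and 212 at 2-fold or less (5.67%). The cDC2 side held only 45615 UMIs in KO and 23473 in DKO, so that many genes were at 0 there. The constant added to each UMI sum weighs more on this smaller side and lowers the ratio of sparse genes. In DKO, Birc5 (0 UMIs against 0) was thus at a log2 of −3.54 and Hist1h2ap (1 against 0) at −1.96. Both were also past 2-fold downward in KO, so the 212 include genes not shown to be lower in DKO. Tbc1d4 was highest, with 222 UMIs against 0 in KO (at least 7.6-fold higher against a floor of 3 UMIs) and 280 against 0 in DKO (at least 8.0-fold). Cd63, a tetraspanin (97 against 0, and 93 against 0), Fabp5, a fatty acid-binding protein (289 against 0, and 61 against 0), and Il1rn, the IL-1 receptor antagonist (148 against 0, and 50 against 0), were others among the 15 highest. The mature side took in 17 of the 27 members with Cd209a, and with the narrower mature group set below Il1rn was no longer 2-fold higher in DKO (4 UMIs against 5, log2 0.79). Of 26 mature dendritic cell genes 13 were higher and none lower, and without Ccr7, Ccl17 and Ccl22, which chose the cells, 11 of 23 were higher. The transcription factors Nr4a3 (log2 1.92 and 2.59), Irf8 (194 UMIs against 4 and 59 against 0) and Id2 (195 against 6 and 96 against 2) were higher as well. The mature side took in 10 of 13 KO and 3 of 3 DKO members with Xcr1 or Clec9a, genes of type 1 dendritic cells. Over all members, those 13 and 3 cells held 88 of the 215 KO and 37 of the 59 DKO Irf8 UMIs. At the other end, Wnt11, a Wnt ligand (13 against 7 UMIs, log2 −2.43, and 26 against 12, −2.46), Itgb7, the partner chain of CD103 (−2.14 and −2.59), Wfdc17 (91 against 61, −2.71, and 47 against 17, −2.10) and the calcium channel gene Orai1 (19 against 8 UMIs and 30 against 10) were lower on the mature side.

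Since Ccr7 was so common, a narrower mature group was set after seeing the data, as members with Fscn1 or Cacnb3. It held 10 KO members (17.5%, 8.75 to 29.9) and 5 DKO members (17.2%, 5.85 to 35.8). None of them had a Cd209a UMI, although 27 members had one. Cd209a did not define this group, but it is 1 of the 6 genes that chose the members. Ccl22, another of these genes, was in all 10 KO and all 5 DKO cells, which could thus enter without Cd209a. The lack of overlap is therefore not independent of the rule. No cell of this group had Mgl2 or Clec10a, 2 other lectins of cDC2. Cd209a occurred with Mgl2 in 16 of the 18 members with Mgl2, and with Clec10a in 17 of the 22 members with Clec10a. All 10 and all 5 had Ccr7, with medians of 28 and 54 UMIs.

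Of the UMIs of several effector genes, these cells held a large part. In KO they held 990 of the 1265 Ccl5 UMIs, 150 of the 164 Il12b UMIs, 124 of the 176 Ccl22 UMIs, 146 of the 281 Ccl17 UMIs and 44 of the 59 Il4i1 UMIs. In DKO they held 475 of 513 Ccl5 UMIs, 78 of 78 Il12b UMIs and 33 of 39 Il4i1 UMIs. Il12b, the shared subunit of IL-12 and IL-23, was in 4 of the 10 KO cells and 2 of the 5 DKO cells, and 135 of its KO UMIs were in 1 cell, as were 694 of the Ccl5 UMIs.

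Set against the Cd209a members (13 in KO, 14 in DKO), the Fscn1 or Cacnb3 members gave 168 genes at 2-fold or more in both libraries (7.94% of 2115) and 214 at 2-fold or less (10.1%), as a description without a test. In DKO the constant added to each UMI sum puts a gene at 0 in both groups, such as G0s2, at a log2 of 1.08. A gene higher in KO and absent from both DKO groups would thus pass, so the 168 may be too many. Il12b (at least 72.7-fold in KO and 55.0-fold in DKO), Il4i1, an amino acid oxidase (at least 21.3-fold and 23.3-fold), and Anxa3, an annexin (at least 14.1-fold and 14.8-fold), were among the highest genes that did not define the groups. Cd200 had 56 UMIs against 0 and 65 against 1, Ccl5 990 against 3 and 475 against 29, and Apol7c, an apolipoprotein L, 55 against 1 and 6 against 0. Of 25 mature dendritic cell genes 17 were higher in both libraries and none lower, and without Fscn1, Cacnb3, Ccl17 and Ccl22, which set the groups or chose the members, 13 of 21 were higher. The transcription factors Irf8 (log2 3.28 and 4.54), Id2 (2.85 and 3.34), Relb (2.12 and 1.99) and Nr4a3 (2.25 and 1.06) were higher, and Cebpb was lower (−2.34 in KO, 0 against 44 UMIs in DKO). In DKO, 2 of the 5 Fscn1 or Cacnb3 members also had Xcr1 or Clec9a, genes of type 1 dendritic cells, against 0 of 10 in KO. Those 2 cells held all 78 Il12b UMIs, 36 of the 49 Irf8 UMIs and 27 of the 33 Il4i1 UMIs of the DKO group. Without members with Xcr1 or Clec9a, Il12b was at 0 in the 3 remaining DKO cells, Irf8 was at 3.51 in each library and Nr4a3 at 2.17 and 0.92.

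Antigen presentation genes did not follow. Of 11 MHC class II pathway genes none was higher and 4 were at least 2-fold lower in both libraries: H2-Ab1 (log2 −1.06 and −2.38), the DM chaperone genes H2-DMa (21 against 75 UMIs and 3 against 77) and H2-DMb1 (log2 −2.95 and −2.77, with reads that may be shared with the near-identical H2-DMb2), and H2-Oa (1 against 18 and 2 against 15). Cd74, the invariant chain, was at −0.95 and −1.18. Plaur, the urokinase receptor (1 against 50 UMIs and 0 against 32), Ly6a (1 against 49 and 0 against 40) and Havcr2, which encodes TIM-3 (0 against 25 and 0 against 20), were near 0 in the Fscn1 or Cacnb3 members. Costimulatory genes were not uniform: Cd86 was at −1.08 and −0.46, Cd83 at 0.78 and −0.46, and Cd40 at 3.28 in KO but −0.43 in DKO.

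**Figure D4:**
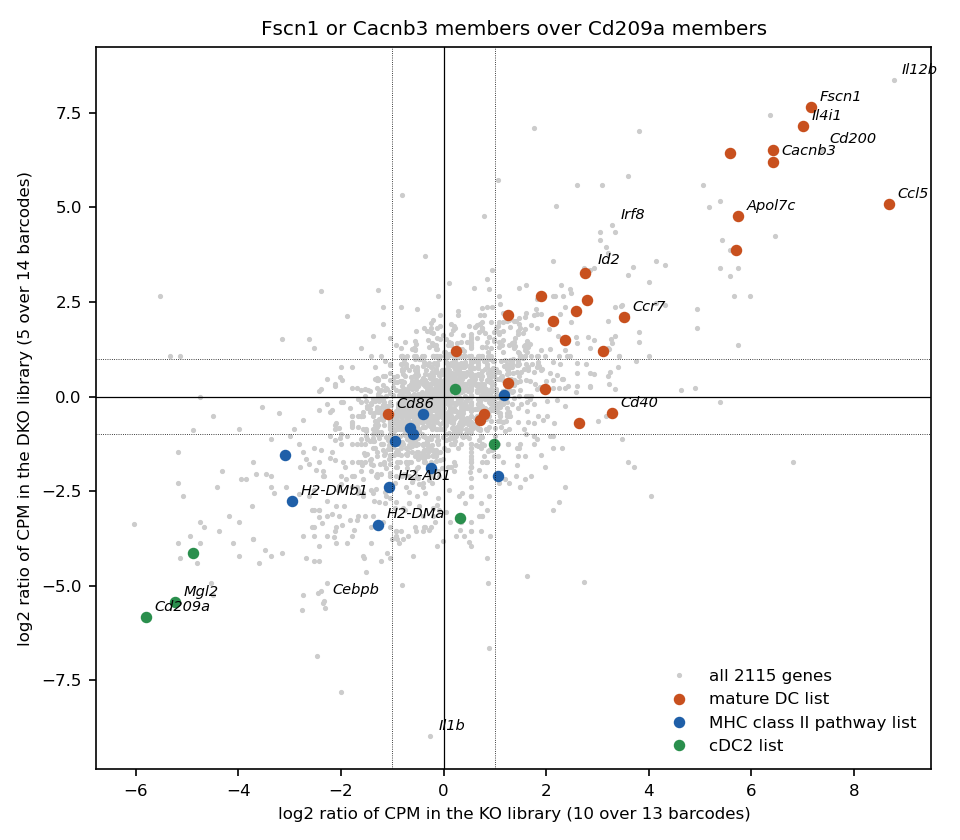
log2 ratio of CPM in members with Fscn1 or Cacnb3 over members with Cd209a, in the KO library (x axis) and the DKO library (y axis), for 2115 genes, with 0.5 UMI added to each sum, so that points of genes at 0 on one side are no bound; coloured points are 3 gene lists and dotted lines mark 2-fold. Mature dendritic cell genes are at the upper right in both libraries (17 of 25 past 2-fold, or 13 of 21 without genes that set the groups or chose the members), MHC class II pathway genes at the lower left (4 of 11), and Fscn1, Cacnb3 and Cd209a define the groups.

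Plet1 marked other members. Of the 28 members with Itgae, the CD103 integrin chain, 25 had Plet1, and of the 18 with Epcam, an adhesion molecule also found on epithelium, 16 had it. Plet1 is a rule gene, seen in 32 of 57 KO and 9 of 29 DKO members. Those members were deeper, with 397231 of the 592113 KO member UMIs and 132095 of the 297145 DKO member UMIs, and detection depends on depth. Epithelial Krt19, Lgals4, Fabp2 and Phgr1 were at 0, and Krt8, Krt18 and Cldn7 had 1 UMI each, all in DKO. Plet1 was shared by 8 members with Cd209a and by 2 with Fscn1. Genes of type 1 dendritic cells also occurred: 13 KO and 3 DKO members had Xcr1 or Clec9a, so the members are not all free of type 1 genes. The 13 KO members held 23 of the 43 KO Itgae UMIs, and 10 of the 13 had Plet1. The 3 DKO members held 1 of the 16 DKO Itgae UMIs and no Plet1.

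DKO and KO members were next compared, to ask what the loss of CerS2 went with in these cells. Of 5783 genes with 10 or more UMIs, 366 were at least 2-fold higher in DKO (6.33%) and 602 at least 2-fold lower (10.4%). The counting interval lay above 0 for 7.47% and below 0 for 7.92%, and the median over all genes was a log2 of −0.04. With 30 or more UMIs required, 113 genes were past 2-fold upward and 152 downward. After the values were seen, each gene was also computed without the 1 cell with most of its UMIs in KO or in DKO, without the members with Il22ra2 and without those with Xcr1 or Clec9a. Of 52 list genes past 2-fold, 21 stayed past it in all these settings, and of 89 with an interval on one side of 0, 34 kept it there. The difference between 2 libraries includes that between the animals, sorts and captures they came from, from which the genotype cannot be told apart.

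Among the marker genes, Cd209a was higher in DKO members (log2 1.57, 0.98 to 2.19) and Ccl17 and Ccl22 were lower (−1.63, −2.14 to −1.19, and −1.13, −1.68 to −0.64). Klri1 was at 0.70 (0.05 to 1.34), Plet1 at −0.80 (−1.21 to −0.41) and Flt3 at 0.09 (−0.79 to 0.89). Ccl22 was at −0.83 without 1 KO cell. These genes chose the members, and which cells entered is part of each ratio. Thinned to 1500 UMIs, 28.6% of DKO and 8.9% of KO members had Cd209a, 14.3% and 32.1% had Plet1, and none of the thinned B and T cell barcodes had Cd209a.

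Of 11 cDC2 genes 4 were at least 2-fold higher and none lower: Cd209a, the lectin Mgl2 (29 UMIs in 8 KO members, 45 in 10 DKO members; log2 1.62), lymphotoxin Ltb (18 and 30 UMIs, 1.72) and Tnip3, an inhibitor of NF-kB signalling (81 and 85 UMIs, 1.06). Cd209a chose the members, and without it 3 of 10 were higher, none was lower and the median was 0.37. Cd209a and Mgl2 stayed past 2-fold in each of those settings, while Ltb was at 0.99 without 1 DKO cell and −0.02 without the Il22ra2 members, and Tnip3 at 0.84 without 1 DKO cell. Mgl2 occurred with Cd209a in 6 of its 8 KO members and all 10 of its DKO members. Which Cd209a cells entered is thus part of its ratio too. The cDC2 median with Cd209a was 0.38, and Clec10a (0.14, −0.80 to 0.99), Sirpa (0.35, −0.84 to 1.45) and the factor Irf4 (0.31, −0.94 to 1.44) had intervals across 0. Of 7 type 1 genes none was higher and 2 had intervals below 0, Irf8 (215 UMIs in 39 KO members, 59 in 10 DKO members; −0.86, but −0.39, −0.86 to 0.04, without the Il22ra2 members) and the chemokine receptor Xcr1 (18 and 2 UMIs, −1.89, −5.33 to −0.11, and −4.83 to 0.53 without 1 KO cell). None of 10 core dendritic cell genes had an interval that left out 0 (median 0.06).

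Among 7 genes of gut CD103 cells, Epcam was at least 2-fold higher (20 and 36 UMIs, 1.83, 1.02 to 2.71), Klri1 and Cd24a, a glycosylated surface protein (56 and 44 UMIs, 0.65, 0.04 to 1.24), had intervals above 0 and Plet1 had one below. Without the Il22ra2 members, which held 30 of the 36 Epcam UMIs, Epcam was at 0.05 and Cd24a at −0.20, and without 1 DKO cell the interval of Klri1 crossed 0. Itgae was at −0.40 (−1.36 to 0.43). The list median was 0.48, but −0.42 with cells of equal weight, −0.24 without the top cell of each gene and −1.35 without cells with Il22ra2, so its direction was not stable. Of 5 genes of the cDC2B and DC3 kind, Clec12a, an inhibitory lectin, was lower (39 and 9 UMIs, −1.06, −2.35 to −0.05, but −0.52 without 1 KO cell) and the other 4 had intervals across 0.

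Of 18 lineage transcription factors 1 was at least 2-fold higher, Batf (14 and 16 UMIs, 1.18, 0.06 to 2.33, but 0.69 without 1 DKO cell), and 2 at least 2-fold lower, among them Prdm1 (12 and 1 UMIs, −2.06, −8.01 to 0.17). Runx3 was at −0.57 (−0.96 to −0.19), Klf4 at −0.46 (−0.95 to −0.01, and −0.82 to 0.13 without 1 KO cell) and Nr4a3 at 0.35 (0.14 to 0.56, and 0.01 without members with Xcr1 or Clec9a). Spi1, Id2, Zbtb46 and Notch2 had intervals across 0.

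Maturation genes were split. Of 27 measured, the interval lay above 0 for 13 and below 0 for 6, with a median of 0.56. Ccr7 had 679 UMIs in KO and 647 in DKO members (log2 0.93, 0.77 to 1.08), Cd83 365 and 300 (0.71, 0.49 to 0.94), Relb 86 and 75 (0.80, 0.33 to 1.26) and Fscn1 49 and 47 (0.94, 0.33 to 1.54). Ccr7, Cd83 and Relb kept intervals above 0 in each of the settings above, and Fscn1 was at −0.09 without 1 DKO cell. Tbc1d4, which no list holds, was at 1.07, and 0.71 without the Il22ra2 members. In the other direction stood Ccl17 and Ccl22, Pdcd1lg2, which encodes PD-L2 (67 and 15 UMIs, −1.13), Apol7c (74 and 9, −1.98), Serpinb6b (−0.42) and Ccl5 (−0.31). Apol7c stayed past 2-fold in each setting. Ccl5 changed direction, to 0.82, without the 1 KO cell that held 694 of the 1265 UMIs, the Serpinb6b interval crossed 0 without 1 KO cell (−0.62 to 0.05), and Pdcd1lg2 was at −0.74 without the Il22ra2 members. MHC class II genes had a median of 0.30, with 6 of 12 intervals above 0 and none past 2-fold. Cd74 had 107 UMIs in the median KO member (16 to 378) and 192 in the median DKO member (19 to 447), a log2 of 0.63 (0.58 to 0.68) with wide overlap between the cells.

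Costimulation and checkpoint ligands had a median of 0.62 over 12 genes (−0.19 with 3 of 6 markers required), with 2 at least 2-fold higher and 1, Pdcd1lg2, lower. Tnfsf9, the ligand of 4-1BB, had 20 UMIs in KO and 33 in DKO members (1.70, 0.87 to 2.60) and Cd200 68 and 71 (1.06, 0.56 to 1.56). In both genes 1 DKO cell carried the difference, and without it Tnfsf9 was at 0.07 (20 and 10 UMIs) and Cd200 at 0.06 (68 and 34 UMIs). Cd86 was at 0.63 (0.31 to 0.95), Cd40 at 0.60 (0.08 to 1.11, and −0.16 to 0.93 without 1 DKO cell) and Cd80 at 0.06 (−0.48 to 0.57). Among 8 migration receptor genes Ccr7 had an interval above 0 and 4 had one below, among them Cxcr4 (100 and 27 UMIs, −0.87, −1.56 to −0.27), Gpr183, an oxysterol receptor (154 and 56, −0.46, −0.93 to −0.01, and −0.83 to 0.10 without 1 KO cell), and Xcr1.

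Among chemokine genes, 7 of 13 were at least 2-fold lower and 2 at least 2-fold higher, and the median was −1.13 (over all genes, 10.4% were lower and 6.33% higher). That median is the value of Ccl22, which with Ccl17 chose the members, and without both 5 of 11 were lower, 2 were higher and the median was −0.31. Beside Ccl17 and Ccl22, Cxcl10 had 255 UMIs in 23 KO members and 41 in 14 DKO members (−1.63, −2.16 to −1.16). Cxcl10 stayed past 2-fold in each setting above, but within Cd209a members it was at −0.16 (39 and 32 UMIs, −0.89 to 0.54). Ccl3 had 14 UMIs and 0, Ccl4 26 and 3, and Cxcl1 17 and 2, of which 3, 16 and 3 KO UMIs were left without 1 KO cell. Cxcl2 had 248 and 218 UMIs (0.81), but −2.93 without the 1 DKO cell that held 203. Cxcl9 had a ratio near 0 (570 and 275 UMIs, −0.06, −0.27 to 0.15), but it was seen in 44 of 57 KO and 11 of 29 DKO members, and 3 DKO cells held 181 of the 275 UMIs.

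Of 14 interferon-stimulated genes, 5 were at least 2-fold lower and none higher, with a median of −0.62. Rsad2 had 27 UMIs in KO and 2 in DKO, Ifi47 33 and 4, Irgm1 46 and 9, and Isg15 448 and 148 (−0.60, −0.88 to −0.33). Without the Il22ra2 members Isg15 was at −0.10 (−0.38 to 0.18) and Irgm1 at −0.57, while Rsad2 and Ifi47 stayed past 2-fold, Ifi47 with an interval across 0. In Cd209a members Isg15 was higher in DKO (82 and 114 UMIs, 0.59, 0.17 to 1.02). It was lower in the Fscn1 or Cacnb3 members (−1.94) and in the remaining members (−2.16). Ifitm1, an interferon-induced membrane protein outside the list, was seen in 41 of 57 KO members with a median of 8 UMIs (0 to 112) and in 12 of 29 DKO members with a median of 0 (0 to 77). It summed to 1378 and 194 UMIs (−1.83, −2.06 to −1.62), and 153 of the 194 were in 3 cells. In the other kept barcodes Ifitm1 was at −0.77, and thinned B and T cell barcodes had a UMI in 1.10% (KO) and 0.851% (DKO), against 55.4% and 25% of members. NF-kB genes had a median of 0.51, with 6 of 16 intervals above 0 and none past 2-fold.

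Cytokine genes gave a median of 0.06 over 9. Il1b had 1552 UMIs in 51 KO members and 1443 in 23 DKO members, with medians of 21 (0 to 169) and 29 (0 to 246) per cell and a log2 of 0.89 (0.79 to 0.99), or 0.22 (0.08 to 0.36) without the Il22ra2 members. Il1a had 33 UMIs and 2, and Il1rn 148 and 50 (−0.56, −1.06 to −0.10, and −0.81 to 0.18 without 1 KO cell). Il23a, the IL-23 subunit, had 28 and 32 UMIs (1.18), and all 32 were in Il22ra2 members. Il12b was at −0.07 (−0.49 to 0.32), and without 1 cell it was at 2.39 (KO cell left out) or −1.68 (DKO cell left out). Nos2, the inducible nitric oxide synthase, had 23 UMIs in 6 KO members and 0 in DKO (at least 3.85-fold lower). Tnf had 4 and 0 UMIs and Il10 1 and 0, both under what this depth can compare.

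The 24 genes at the ends of the order of counting intervals often rested on few cells. Il22ra2, which encodes the secreted IL-22 binding protein, was highest (log2 4.51, 3.87 to 5.31), with 19 UMIs in 2 KO members, 2 and 17 per cell, and 223 UMIs in 7 DKO members, from 3 to 57 per cell. The 7 DKO cells also held 976 of the 1089 Lyz2 UMIs, all 23 Lyz1 UMIs, 30 of the 36 Epcam UMIs, 49 of the 69 Plet1 UMIs and 861 of the 1443 Il1b UMIs, and none had Cd209a. Lyz2, a lysozyme of myeloid cells whose reads may be shared with its near-identical neighbour Lyz1, was at 2.27 over all members and −0.28 without the Il22ra2 cells. Outside the members Il22ra2 had 30 UMIs in 4 KO barcodes and 333 UMIs in 12 DKO barcodes, 11 of them past the C1q limit.

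Other genes were also higher in DKO. Klf2, a transcription factor, had 25 UMIs in 12 KO members and 73 in 12 DKO members (2.52, 1.87 to 3.26), of which 30 were in 1 cell. Clec4b1, a C-type lectin, had 6 UMIs in 3 KO and 22 UMIs in 11 DKO members (2.79, 1.52 to 4.46). Ahnak, a large scaffold protein, had 72 UMIs in 25 and 136 in 17 (1.91, 1.49 to 2.35). Ppp1r1a, a phosphatase inhibitor, had 1 UMI in KO and 16 in 8 DKO members (4.45, 2.31 to 10.4), and Rgs12, a regulator of G protein signalling, 1 and 9 UMIs, the latter in 7 members. Tfcp2 was at 0 in KO with 12 UMIs in 3 DKO members (at least 7.97-fold higher).

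Genes lower in DKO included several that 1 or a few KO cells carried. Txndc16 had 171 of its 182 KO UMIs in 1 of 4 cells, Apoe, a lipoprotein of macrophages, 66 of 88 in 1 of 13 (log2 −3.01, and 0.70 with 3 of 6 markers required), G0s2 25 of 25 in 1 cell (1.02 without it), and Gm35339 and Ccl24 (an eotaxin) 38 UMIs each in 2 cells. The histone genes Hist1h2ap (95 UMIs in 5 KO cells, 1 in DKO), Hist1h2ae (131 in 6, and 6) and Hist1h1b (48 in 3, and 0), whose family members share sequence, and Birc5, the mitotic gene survivin (23 in 6, and 0), moved with 7 KO members and 1 DKO member that had 5 or more UMIs of 6 cycling genes. Without those members Hist1h2ap was at 0.033 and Hist1h2ae at 1.66. Inhba, the activin A chain, was spread over 10 KO members with 71 UMIs against 2 in DKO (−3.84, −7.23 to −2.25), and was also lower in the other DKO barcodes (−2.52). Hspa1b, a heat-shock gene near-identical to Hspa1a, had 83 UMIs in 10 KO members, 71 of them in 3 cells, and 6 in DKO.

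**Figure D5:**
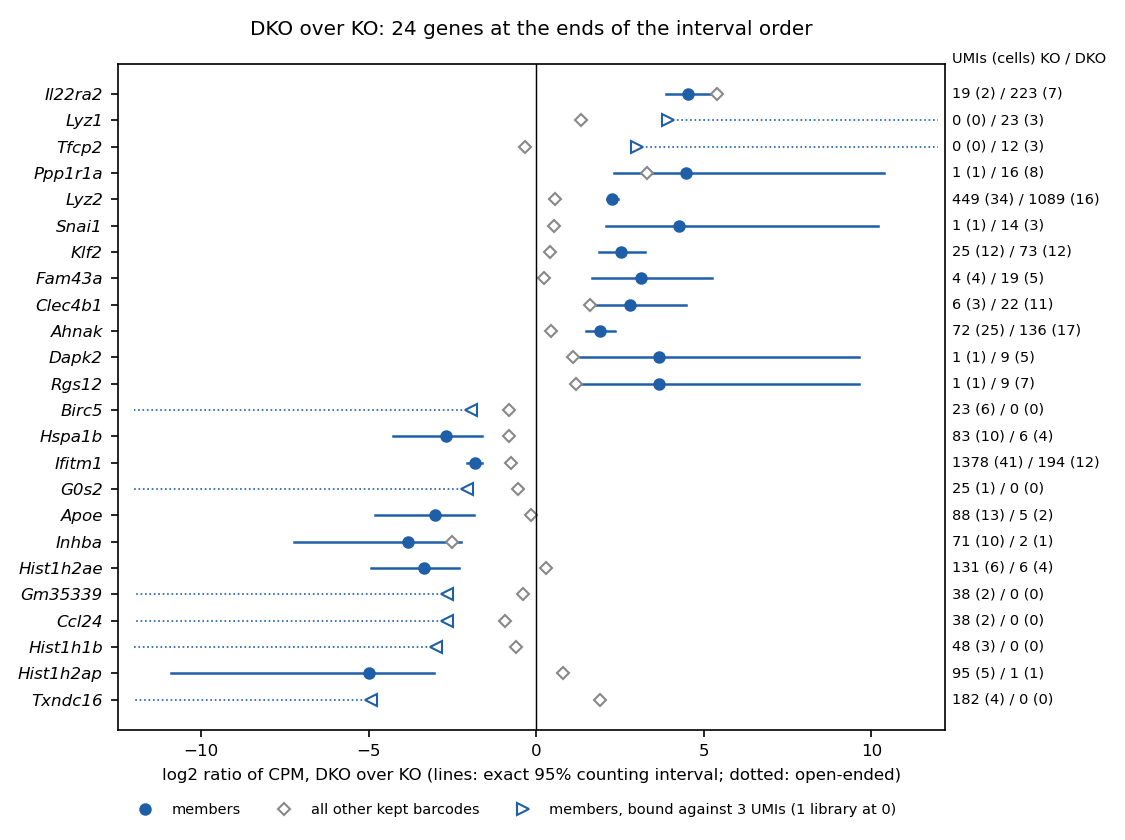
log2 ratio of CPM, DKO over KO, in members (filled circles with exact 95% counting intervals) for the 12 genes with the highest lower bound and the 12 with the lowest upper bound, and in all other kept barcodes (open diamonds); triangles are bounds against 3 UMIs for genes at 0 in 1 library, and the right column gives UMIs and cells per library. Il22ra2 and Inhba point the same way in the other barcodes (5.38 and −2.52), while Txndc16, Hist1h2ap, Hist1h2ae and Tfcp2 (−0.34) have the opposite sign there.

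Within the narrower groups, looked at after the values were seen, the genotypes differed in other genes. Il1b was found in 9 of the 10 KO members with Fscn1 or Cacnb3 (237 UMIs, median 22, 0 to 69) and in none of the 5 DKO members (0 of 53943 UMIs, at least 50.1-fold lower). Thinned B and T cell barcodes had an Il1b UMI in 3.52% (KO) and 2.13% (DKO). The type 1 genes Xcr1 or Clec9a were seen in 0 of the 10 KO members and in 2 of the 5 DKO members. Cxcl10 (49 UMIs in 5 cells against 0), Cxcl2 (47 against 0) and Nfkbiz (26 against 0) were at 0 there as well. Ccl17 (146 and 24 UMIs, log2 −1.92) and Ccl22 (124 and 31, −1.33) were lower in DKO within these cells, while Il12b (150 and 78, −0.28, −0.70 to 0.12) and Il4i1 (44 and 33, 0.25, −0.45 to 0.93) had intervals across 0, where 2 DKO cells held all of the Il12b UMIs. In Cd209a members Il1b was in 13 of 13 KO and 13 of 14 DKO cells (415 and 534 UMIs, 0.48), Ccr7 was at 35 and 147 UMIs (2.17, 1.65 to 2.76), Cd40 at 6 and 38 (2.68, 1.53 to 4.31) and Tbc1d4 at 2 and 27 (3.58, 1.88 to 6.99). Cd40 went the other way in the Fscn1 or Cacnb3 members (43 and 13 UMIs, −1.03, −2.09 to −0.15), with 22 of the 43 in 1 cell. Nfkbiz, at 0 in DKO there, was higher in DKO among Cd209a members (12 and 28 UMIs, 1.31, 0.32 to 2.45). These groups hold 5 to 14 cells, and the spread between mice was not measured.

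The sphingolipid list, which CerS2 belongs to, was sparse in members: 13 of 28 genes reached 10 UMIs, 2 were at least 2-fold higher and 1 lower, and the median was 0.57. Sptssa, a subunit of the enzyme that starts sphingolipid synthesis, had 28 and 34 UMIs (1.27, 0.51 to 2.05), and Sphk2, a sphingosine kinase, 30 and 6 (−1.24, −2.88 to −0.04). Psap, the saposin precursor, was at −0.38 (−0.70 to −0.09). Without the Il22ra2 members Sptssa was at 0.91 and Sphk2 at −0.86, both with intervals across 0, and without members with Xcr1 or Clec9a Psap was at 0.32. Of 8 genes of the IL-10 receptor pathway, whose receptor both groups lack, none had an interval that left out 0 (median 0.22), among them Stat3 (106 and 46 UMIs, −0.20, −0.74 to 0.30) and Socs3 (30 and 17, 0.19, −0.78 to 1.08). Of 3 desaturation and elongation genes measured, Scd2 was at −1.24 (16 and 3 UMIs, −3.84 to 0.38), Elovl1 at −0.66 (−2.35 to 0.63) and Elovl5 at 0.49 (−0.40 to 1.33).

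Of 8 cell cycle genes 5 were at least 2-fold lower in DKO and none higher, with a median of −1.71, or −1.44 with Birc5 and Ube2c, both at 0 in DKO, set at their bounds. Stmn1, which destabilises microtubules, had 106 UMIs in 16 KO members and 12 in 4 DKO members (−2.10, −3.15 to −1.28). Mki67 had 17 and 7 UMIs (−0.23, −1.80 to 1.06). In KO, 96 of the 106 Stmn1 UMIs were in the 7 members with 5 or more UMIs of 6 cycling genes, Stmn1 among them. In DKO, 1 member was of this kind. Of 10 immediate early and dissociation genes, Dusp1 (100 and 96 UMIs, 0.94), Ier2 (0.58) and Zfp36 (0.77) had intervals above 0 and Hspa1a and Hspa1b below (for Ier2 and Hspa1a, not without 1 cell), while Fos (−0.17, −0.52 to 0.17) and Junb (0.15, −0.04 to 0.34) did not differ beyond counting error. Of 6 pattern recognition genes 1, Tlr2, was past 2-fold (19 and 4 UMIs, −1.12, −3.27 to 0.34) and no interval left out 0. Of the list of retinoic acid, TGF-beta and tryptophan enzymes 3 of 12 genes were measured, and Aldh1a2 was not among them.

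Among the markers of other cells, the 9 measured of monocytes and macrophages had a median of 0.04, with Lyz2 past 2-fold upward and 2, Apoe among them, past it downward. Of the plasmacytoid list 3 genes were measured (median −0.23), of the neutrophil list Cxcr2 and G0s2, both at 0 in DKO, of the epithelial list Epcam, of the cDC2A list Ccl24, of the B cell list Ighm (10 and 7 UMIs, 0.51, −1.15 to 2.02) and of the T cell list Il7r (0.04, −0.45 to 0.51). No mast cell gene was measured.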

How the data were processed

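Sorted colon cells of chimeric mice were profiled with 10x Chromium 3′ v3.1 chemistry, 1 library per genotype. The deposited matrices hold raw UMI counts, whole numbers by gene and barcode. Cell Ranger 6.0.1 with mm10 was used by the authors to make them, and the submitters' notes also name Seurat 4.3.0. Barcodes were kept at 300 to 5000 genes and at most 10% mitochondrial UMIs, after the study's methods. UMIs were summed over members and given as CPM; log2 ratios had 0.5 UMI added. Intervals are exact (Clopper-Pearson for shares, Poisson for levels, conditional for ratios). A gene was measured with 10 or more UMIs over both libraries (DKO over KO) or 20 or more (the other comparisons), and 2-fold is a log2 of 1 or −1. Genes were named from 29 lists or by rank: the 25 highest of members over others, 15 at each end for mature over cDC2, and 12 at each end by interval bound for DKO over KO, without mitochondrial, ribosomal, immunoglobulin and Y-linked or X-inactivation genes. Members, lists and rules were chosen with earlier results of these data known. Coordinates are of GRCm38 (GENCODE). Alternatives covered the rule, filters, thinning to 1500 UMIs, weights and left-out cells, with edgeR 4.0.16 used for TMM factors only. The intervals were checked on simulated counts drawn with counting error only, as the intervals assume. That check does not cover UMIs that gather in single cells. Software was Python 3.11.15, scipy 1.17.1 and Scrublet in scanpy 1.11.5, which marked 9 KO barcodes and 0 DKO barcodes, none of them members. Values of a few listed genes are not reported here.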

Additional observations from a re-analysis of the deposited data

Results flagged for a closer look

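The results below were flagged because the counting interval of DKO over KO lay on one side of 0 in members and on the other side in all other kept barcodes. With 1 library per genotype the difference itself was not tested. Among the marker genes, Ccl17 was at a log2 of −1.63 in members and 0.71 in the others, Ccl22 at −1.13 and 1.34, and Plet1 at −0.80 and 0.44. The members were chosen on these genes, so the others are barcodes with at most 1 of the markers or with signs of another cell type.

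Il1b was at 0.89 in members and −0.63 in the others, Cxcl2 at 0.81 and −1.08, and Cxcl16 at 0.44 and −0.30. In DKO, 861 of the 1443 Il1b UMIs were in the 7 members with Il22ra2, and 203 of the 218 Cxcl2 UMIs were in 1 cell. Cd40 was at 0.60 and −0.35, Marcksl1 at 0.75 and −0.25, Dnase1l3 at 1.25 and −0.54, Zfp36 at 0.77 and −0.16, and H2-Ab1 at 0.32 and −0.06. Serpinb6b was at −0.42 and 0.37, Rsad2 at −2.46 (27 and 2 UMIs, −5.88 to −0.77) and 0.43, Nop58 at −0.71 and 0.31, and Xcr1 at −1.89 (18 and 2 UMIs, −5.33 to −0.11) and 1.93.

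Hist1h2ap was at −5.00 (95 UMIs against 1, −10.9 to −3.06) and 0.80, Hist1h2ae at −3.34 and 0.28, and Stmn1 at −2.10 and 0.22. In KO, 3 members held 93 of the 95 Hist1h2ap UMIs and 128 of the 131 Hist1h2ae UMIs. Txndc16 was at −7.52 in members, where 1 KO member held 171 of the 182 UMIs and DKO had 0 (at least 30.4-fold lower), and at 1.91 in the others. Cxcr2, a neutrophil chemokine receptor, was at −4.05 (16 UMIs against 0, at least 2.68-fold lower) and 0.62. The part of single cells in these differences beyond the values given was not tested.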

How the results depend on the processing

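No paired analysis was possible because each genotype has 1 library, which also leaves no replicate to leave out. The member share was 1.11%, 1.51% and 1.0% in KO, and 2.05%, 3.15% and 0.91% in DKO, with 3 of 6 markers, with 2 of Flt3, Cd209a, Klri1 and Plet1, and after thinning to 1500 UMIs; without B and T cell barcodes the DKO share was 5.93%. The mature share was 39.3% (KO) and 57.1% (DKO) after thinning, and 17.5% and 17.2% by Fscn1 or Cacnb3. Of DKO over KO, 1444 genes were higher and 1776 lower at 1 or more UMIs, 113 and 152 at 30 or more, and 943 lower with the top cell of each gene left out. Members over others gave 355 higher and 505 lower at 5 or more UMIs, and 79 lower at 40 or more. Mature over cDC2 gave 31 and 10 after thinning. For DKO over KO, 24 genes were named. TMM factors, a pseudocount of 1, cells of equal weight and sides weighted as in KO moved 0 of them. Leaving out the top cells moved 5 and requiring 3 markers moved 7. Leaving out the top 5% of Scrublet scores could move none, since no member was among those barcodes. With C1q barcodes in place of all others, 18 of 50 named values of members over others moved and 0 reversed. The named values of mature over cDC2 were less stable: 33 of 40 moved with Fscn1 or Cacnb3 as the mature side, and 9 of 18 moved and 1 reversed after thinning. Without the 1 cell with most UMIs in KO or DKO, without Il22ra2 members or without members with Xcr1 or Clec9a, 31 of the 52 list genes past 2-fold in DKO over KO fell short of it in at least 1 setting. Some list genes also changed sign in these settings, Ccl5 without 1 KO cell among them. The sign reversed for the gut CD103 list median (−0.42 with cells of equal weight, −0.24 without the top cells, −1.35 without Il22ra2 cells), the costimulation list median (−0.19) and Apoe (0.70) with 3 of 6 markers, G0s2 without its top cell (1.02), Lyz2 without Il22ra2 cells (−0.28), Hist1h2ap (0.033) and Hist1h2ae (1.66) without cycling cells, and Ktn1 in DKO, mature over cDC2, after thinning (−0.28). Leaving out cells with Il22ra2, cDC1 genes, cycling genes, or Fscn1 or Cacnb3, or single cells of either library, was chosen after seeing the data; beyond fewer cells, causes were not tested. At this depth a gene at 0 in the DKO members could have up to 10.1 CPM, or 5.07 CPM in KO.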
